A study of Homo sapiens with 8 samples.

Results

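The transcription factors that set B-cell precursor identity were followed through a knock-down of the MLL/AF4 fusion in SEM cells, a human leukaemia line of B-cell precursor type that carries the fusion. The 10 genes, PAX5, EBF1, TCF3, IKZF1, IKZF3, SPIB, LEF1, TCF4, BCL11A and BACH2, were chosen by symbol, and every probe annotated to them was taken: 16 probes of the 39421 on the arrays, and 10 of 18205 genes with a symbol. RNA from days 2, 4 and 6, after 1, 2 and 3 electroporations, was read on 1 Illumina bead array per treatment and day, the siRNA being either directed at MLL/AF4 mRNA (siMLL/AF4) or a control siRNA (siCtrl). Pulse control cells (MOCK) were arrayed on days 2 and 4, which makes 8 arrays of 1 fusion-positive cell line.

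Nothing in the labels says whether the days were separate cultures, so the p-values below measure the spread between days and arrays only. A newer array version carried both day 6 samples, and levels are therefore compared within a day. All levels are log2 expression values. They rest on reading the deposited numbers as natural logs, which no label states. If those were logs to base 2, each log2 level and difference would be 0.693 times as large. A Null entry stands in the files in place of a number for that probe on that array.

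B-cell development depends on a small circuit of factors. The E proteins TCF3 (E2A) and TCF4 (E2-2) bind E-box sequences and act with EBF1, which opens B-lineage genes, and with PAX5, which commits the cell by activating B-cell genes and repressing those of other lineages. The Ikaros family zinc finger proteins IKZF1 and IKZF3 (Aiolos) restrain proliferation and activate the differentiation of pre-B cells, and loss of IKZF1 is a known lesion of B-cell precursor leukaemia. SPIB is an ETS factor close to PU.1, BCL11A a zinc finger repressor needed for early B cells, LEF1 a nuclear effector of WNT signalling expressed in precursor lymphocytes, and BACH2 a repressor that acts with PAX5 and holds back plasma cell differentiation.

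The upstream sequences of SPIB and IKZF1 are shown because, among the 6 factors that could be tested, these had the largest mean differences between siMLL/AF4 and siCtrl at the leading probe. They are the 250 bases before a RefSeq transcription start on the plus strand of GRCh38.p14, chr19:50418688-50418937 for SPIB and chr7:50304466-50304715 for IKZF1, the most upstream of 3 RefSeq starts of that gene. Capitals mark the E-box CANNTG, the sequence that TCF3 and TCF4 recognise.
SPIB: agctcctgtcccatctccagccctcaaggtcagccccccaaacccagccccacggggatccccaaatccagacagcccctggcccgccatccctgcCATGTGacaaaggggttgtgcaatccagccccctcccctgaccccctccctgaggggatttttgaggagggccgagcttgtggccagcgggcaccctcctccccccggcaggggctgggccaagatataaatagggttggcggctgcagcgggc
IKZF1: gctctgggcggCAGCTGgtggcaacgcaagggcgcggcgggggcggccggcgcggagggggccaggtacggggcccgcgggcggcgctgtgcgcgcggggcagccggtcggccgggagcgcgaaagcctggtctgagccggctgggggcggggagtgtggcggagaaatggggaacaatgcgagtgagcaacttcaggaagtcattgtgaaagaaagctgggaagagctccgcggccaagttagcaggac

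Each of these windows held 1 E-box. The letters of 6 motifs were searched on both strands in the 24 upstream windows of the 9 members found in the RefSeq table. Most of these windows, and most of those with GGGAA, belonged to TCF4 and BCL11A, so the percentages below are shares of windows and not of genes. An E-box was present in 13 of the 24 windows, or 54.2%, against 61.8% of all 35116 windows of the same length. The Ikaros core GGGAA was present in 70.8% of the members' windows and in 59.0% of all windows, and the shorter ETS core GGAA, which it contains, in 91.7% and 92.7%. The SPIB window held neither of these cores, and the IKZF1 window held 3 GGAA positions, 2 of them within GGGAA. The AP-1 and BACH sequence TGANTCA was found in 1 member window and in 6.57% of all windows. The EBF1 palindrome and the LEF and TCF sequence CTTTGA were in none of the members' windows and in 1.06% and 11.2% of all windows. A match is a string of letters and not a bound site.

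The genes joined in the fusion were checked first. With siMLL/AF4 the KMT2A (MLL) probe differed from siCtrl by -0.49, -0.55 and -0.53 on days 2, 4 and 6, and both AFF1 (AF4) probes were lower on each day, by between -0.35 and -2.02. Both genes are also transcribed outside the fusion. Spearman correlations across probes were 0.903 to 0.925 among the 6 older arrays, 0.860 to 0.880 between siCtrl on day 6 and the older arrays, and 0.824 to 0.849 for siMLL/AF4 on day 6, the array that stood farthest apart. Of 10 defining B-cell precursor markers, 9 had a probe, and between 5 and 7 of them reached the median probe on each array, CD79A, CD79B and VPREB1 among them. Null counted as the lowest value for this median, which puts it below 5.16, the median of the deposited values. With MOCK on day 2, CD24 at 3.85 and RAG1 at 4.32 counted as reaching it. Every probe of DNTT, RAG1, RAG2 and CD24 had at least 1 Null entry. The summed linear level of these markers was 5828 to 9330 with MOCK, 4226 to 7509 with siCtrl and 5036 to 8727 with siMLL/AF4. For 9 myeloid markers with a probe the corresponding ranges were 5249 to 6605, 3490 to 6779 and 2335 to 6852, of which CEBPA made up the most, and pooled over days the ranges of the groups overlap in both lists. Within days 2 and 4, however, the myeloid sum was highest with MOCK (6605 and 5249). It was lower with siCtrl (5461 and 3490) and lowest with siMLL/AF4 (3524 and 2335). CEBPA, which made up most of the sum, and SPIB had this order on those days, but LYZ and CSF1R did not. On day 2 both were highest with siMLL/AF4, LYZ at 7.21 against 6.42 with MOCK and CSF1R at 8.53 against 8.17. For 10 T and NK cell markers the sums were lower, 963 to 998, 580 to 1561 and 429 to 1371. Single markers of other cell types differed more from siCtrl than any tested factor, but the tested markers of a list did not differ alike. GZMA, a granule protease of T and NK cells, differed by -1.14, -1.26 and -2.11 on days 2, 4 and 6, and LYZ, the lysozyme of myeloid cells, by 1.38, 0.67 and 1.15 (limma, adjusted p = 0.484 and 0.553). NKG7, the other tested T and NK cell marker, differed by a mean of -0.024. Of the other tested myeloid markers, CSF1R differed by -0.75, CEBPA by -0.47 and FCGR3A by 1.11. What part these marker levels have in the results was not tested. Fewer cells of a type and less RNA per cell cannot be told apart in these bulk samples.

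The members divided into 6 genes with values on all 8 arrays and 4 genes with Null entries. EBF1, TCF3, IKZF1, SPIB, LEF1 and BCL11A were measured everywhere, at 9 probes. PAX5, IKZF3, TCF4 and BACH2 had Null entries at each of their 7 probes, 19 of 56 entries in all. For comparison, 44.8% of all probes with a gene symbol had a value on every array. The 4 dim genes could not enter the tests across treatments, so the tests speak for 6 of the 10 factors.

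**Figure D1:**
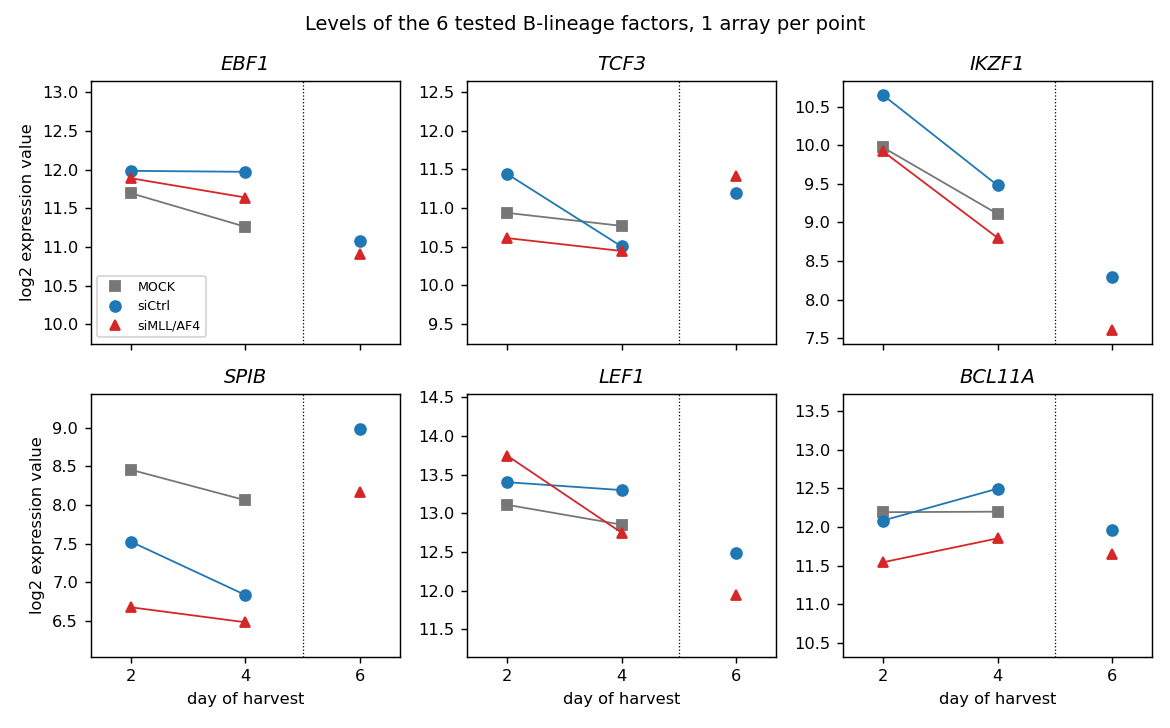
Levels of the 6 tested factors at the probe with the highest mean, as log2 expression values against the day of harvest. Each point is 1 array, grey squares are MOCK, blue circles siCtrl and red triangles siMLL/AF4, lines join the arrays of the older version, the dotted line separates the newer version used on day 6, and every panel spans the same number of log2 units. IKZF1 with siMLL/AF4 lies below siCtrl on each day, and SPIB with MOCK lies above both siRNA treatments on days 2 and 4.

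The central comparison asked how the factors differed when the fusion was depleted. Averaged over days, all 6 tested factors were lower with siMLL/AF4 than with siCtrl, by a median of -0.37 on the log2 scale against -0.0054 for all 9096 genes tested, of which 50.8% were lower. The largest differences were those of IKZF1, 1.62-fold lower, and SPIB, 1.59-fold lower, and the smallest that of EBF1, 1.15-fold lower. On single days the median of the 6 factors was -0.63, -0.45 and -0.43 on days 2, 4 and 6, against 0.091, -0.019 and -0.068 for all genes. None of the 6 passed the test over all genes, in which 0% of genes passed (limma, adjusted p under 0.05, 0 of 9096). An unadjusted p under 0.05 was reached by 672 genes or 7.39%, and 317 or 3.49% of the genes tested reached it as lower. Among these 317 were 2 members, IKZF1 and SPIB.

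At the fully measured probes most differences were below 0. Of 27 within-day differences at the 9 fully measured probes, 25 were below 0, and 7 of the 9 probes were lower on all 3 days. Among all 12188 probes with a symbol and a value on all arrays, 15.2% were lower on all 3 days and 51.4% of the differences were below 0. Taken by gene, 4 of the 6 factors were lower on every day, IKZF1, SPIB, BCL11A and EBF1, against 14.6% of genes tested. The differences were modest. No tested factor differed by 2-fold or more on any single day at its leading probe, whereas 14.5%, 9.93% and 19% of genes did so on days 2, 4 and 6, with 7.08%, 4.46% and 11% lower. IKZF1 alone among the 6 was lower by at least 0.5 on each day, as were 1.87% of genes. These probes of 1 gene share their transcript and all contrasts share arrays, so the counts are not independent observations.

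**Figure D2:**
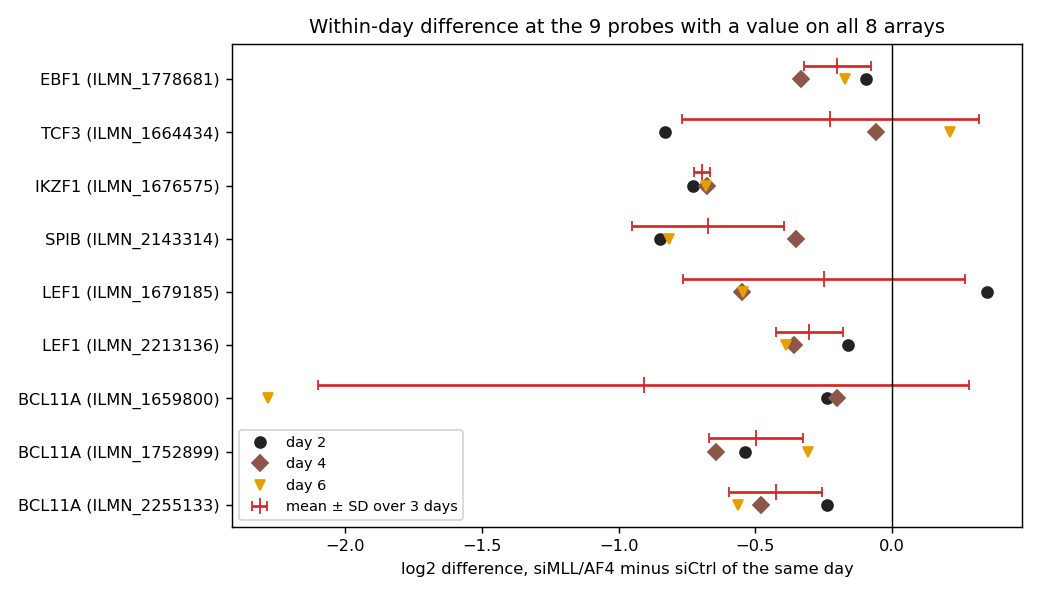
Log2 difference between siMLL/AF4 and siCtrl of the same day at the 9 probes with a value on all 8 arrays. Black circles are day 2, brown diamonds day 4 and orange triangles day 6, and the red bars give the mean and SD over the 3 days. The 3 IKZF1 points lie between -0.73 and -0.68, while 1 BCL11A probe reaches -2.28 on day 6.

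EBF1 is the factor that opens the B-cell programme. Its level was 11.70 and 11.26 with MOCK on days 2 and 4. With siCtrl it was 11.99, 11.97 and 11.08 on days 2, 4 and 6, and with siMLL/AF4 it was 11.89, 11.64 and 10.91. Within each day siMLL/AF4 lay slightly below siCtrl, and on days 2 and 4 both lay above MOCK. The difference of siMLL/AF4 from siCtrl was -0.20 ± 0.12 (SD, n = 3 days), with a 95% interval of -0.78 to 0.38 (limma, adjusted p = 0.908).

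PAX5, the commitment factor, was represented by 1 dim probe. It read 4.55 and 3.28 with MOCK on days 2 and 4, 5.63 and 2.95 with siCtrl, and 1.97 and 1.46 with siMLL/AF4, and it was Null on both arrays of day 6. On both measured days the siMLL/AF4 array was the lowest, by -3.66 and -1.49 from siCtrl. All these values but that of siCtrl on day 2 lie under the median of the deposited values, 5.16, and the treatments were not tested here because of the Null entries.

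The E proteins were read by 1 probe each. TCF3 was at 10.94 and 10.77 with MOCK on days 2 and 4. With siCtrl it was 11.44, 10.50 and 11.20, and with siMLL/AF4 10.61, 10.44 and 11.41 on days 2, 4 and 6. The siMLL/AF4 array was lower by -0.83 on day 2, close to siCtrl on day 4 and higher by 0.21 on day 6. The mean of -0.23 ± 0.54 (SD, n = 3 days) was smaller than its spread (limma, adjusted p = 0.924), and it was 0.077 without day 2 and -0.44 without day 6. TCF4 had values between 2.32 and 3.82 on 5 arrays and Null on 3, so its course could not be followed.

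IKZF1, the Ikaros factor, had the smallest SD over days of the 6 tested factors. Its level was 9.97 and 9.11 with MOCK on days 2 and 4. It was 10.65, 9.48 and 8.29 with siCtrl and 9.92, 8.80 and 7.61 with siMLL/AF4 on days 2, 4 and 6. On every day siMLL/AF4 was below siCtrl, by -0.73, -0.68 and -0.68. The mean was -0.70 ± 0.03 (SD, n = 3 days), and 0.297% of all genes tested had an SD over days as small as this, where the median SD was 0.45. Its moderated standard error was 0.22, with a 95% interval of -1.26 to -0.13, and the adjusted p was 0.597 (limma). Against MOCK the picture was different, since siCtrl lay above MOCK by 0.68 and 0.37 and siMLL/AF4 below it by only -0.052 and -0.31.

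The relative of IKZF1, IKZF3, was dim. Probe ILMN_1669692 was Null with MOCK and siCtrl on day 2. With siMLL/AF4 it read 4.76, 5.26 and 3.72 on days 2, 4 and 6, with MOCK 4.37 on day 4, and with siCtrl 4.21 and 3.64 on days 4 and 6. The siMLL/AF4 array was the highest on each day where another array had a value, by 1.06 from siCtrl on day 4 and by 0.079 on day 6. The second probe, ILMN_2300695, annotated to another IKZF3 transcript, had values on 2 arrays only, -0.31 and 4.79.

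SPIB, the ETS factor, differed from MOCK more than the other tested factors did. It was at 8.46 and 8.06 with MOCK on days 2 and 4. With siCtrl it was at 7.53, 6.83 and 8.99, and with siMLL/AF4 at 6.68, 6.48 and 8.17 on days 2, 4 and 6. On days 2 and 4 the order was MOCK, siCtrl, siMLL/AF4 from high to low, and on day 6 siMLL/AF4 was again the lower of the pair. The difference from siCtrl was -0.85, -0.35 and -0.82, a mean of -0.67 ± 0.28 (SD, n = 3 days) with a 95% interval of -1.30 to -0.048 (limma, adjusted p = 0.651).

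BCL11A, the zinc finger repressor, was lower with siMLL/AF4 at 3 of 3 probes on all 3 days. At the leading probe, ILMN_1752899, the level was 12.19 and 12.20 with MOCK, 12.08, 12.50 and 11.96 with siCtrl, and 11.54, 11.85 and 11.65 with siMLL/AF4. The siMLL/AF4 array was the lowest of each day, and its mean difference from siCtrl was -0.50 ± 0.17 (SD, n = 3 days; limma, adjusted p = 0.724). Probe ILMN_2255133 differed by -0.43 ± 0.17 (SD, n = 3 days). At probe ILMN_1659800 the differences were -0.24 and -0.20 on days 2 and 4 and -2.28 on day 6. The probes thus shared the direction but not the size on day 6. Probe ILMN_2255133 read 8.85 to 10.00 on the 6 older arrays and 11.39 and 11.96 on the newer ones, where day and array version cannot be told apart.

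LEF1, the WNT effector, was read by a pair of probes annotated to the same transcript. At ILMN_1679185 the level was 13.11 and 12.85 with MOCK, 13.40, 13.30 and 12.48 with siCtrl, and 13.75, 12.75 and 11.94 with siMLL/AF4 on days 2, 4 and 6. The siMLL/AF4 array was the highest of day 2 and the lowest of days 4 and 6. Its mean difference from siCtrl was -0.25 ± 0.52 (SD, n = 3 days; limma, adjusted p = 0.913). ILMN_2213136 was lower on each day, by -0.16, -0.36 and -0.39, so the probes disagreed in sign on day 2. At the leading probe the mean was -0.55 without day 2 and -0.10 without day 4 or day 6.

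BACH2 had 3 dim probes, each with Null entries. ILMN_1659943 read 3.44 and 3.85 with siCtrl on days 2 and 6 and 3.96, 3.64 and 6.54 with siMLL/AF4 on days 2, 4 and 6. ILMN_1670695 read 1.03 and 1.54 with siCtrl on days 4 and 6 and 4.02, 3.53 and 4.14 with siMLL/AF4. ILMN_2058468 read 5.10 and 3.90 with siCtrl and 5.59 and 5.02 with siMLL/AF4 on days 2 and 4. Wherever both siRNA arrays of a day had a value, siMLL/AF4 was the higher, by 0.49 to 2.69. With MOCK on day 2 the 3 probes read 4.90, 5.05 and 4.21, of which the first 2 were above siMLL/AF4 on that day. These differences lie at or near the dim end of the arrays and were not tested.

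**Figure D3:**
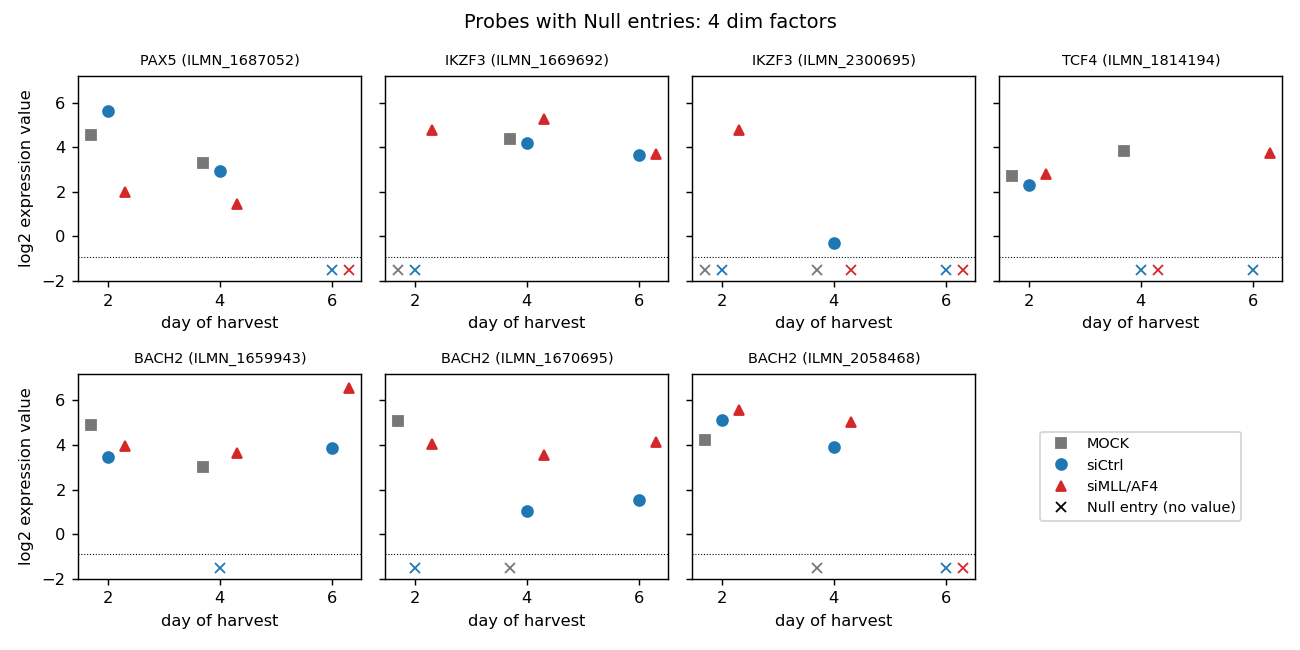
Log2 expression values of the 7 probes with Null entries, by day of harvest. Grey squares are MOCK, blue circles siCtrl and red triangles siMLL/AF4, and crosses under the dotted line mark arrays with no value. PAX5 is lowest with siMLL/AF4 on days 2 and 4, and the BACH2 points of siMLL/AF4 lie above those of siCtrl wherever both were measured.

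Whether the difference on day 6 departed from that of days 2 and 4 was tested in a limma model added after the data were seen. Of 9096 genes, 47 or 0.517% passed, and 0 of the 6 factors did or had an unadjusted p under 0.05, with adjusted p-values from 0.950 to 0.999 (limma). The residual degrees of freedom of this model came to 1, and day 6 and the newer array version cannot be told apart.

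Control siRNA was then set against mock electroporation, and the factors differed in direction. In the fit, which also draws on the siRNA pair of day 6, 5 of the 6 tested factors were higher with siCtrl than with MOCK. The median of the 6 was 0.25, against -0.032 for all 8886 genes tested. TCF3 and BCL11A, among those higher, were close to 0 in the fit, at 0.0098 and 0.048. On days 2 and 4 they differed in sign, by 0.51 and -0.27 for TCF3 and by -0.11 and 0.30 for BCL11A. EBF1 was higher by 0.49 ± 0.23 (SE), or 0.31 without day 4, and IKZF1 by 0.52 ± 0.22 (SE). SPIB was the exception, lower by -0.93 on day 2 and -1.23 on day 4, or 2.06-fold lower in the fit (-1.04 ± 0.24 SE; limma, adjusted p = 0.210). No gene passed (limma, 0 of 8886 or 0%), and an unadjusted p under 0.05 was seen for 1770 genes or 19.9%, and 8.18% of genes were lower at that level, with SPIB as the single member.

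The siMLL/AF4 arrays were set against the same MOCK arrays. SPIB was lower by -1.78 and -1.58 on days 2 and 4, or 3.28-fold lower in the fit (-1.72 ± 0.24 SE). It ranked 14th of 8886 genes by p, with an unadjusted p of 0.000378 and an adjusted p of 0.157 (limma). At least 2-fold lower values on both days were seen for 2.03% of genes, and among the 6 factors for SPIB alone. SPIB passed in 2 alternative settings, with an adjusted p (limma) of 0.0331 with a filter on dim probes at the 70th percentile and of 0.0240 with a trended robust variance. Over all settings run its adjusted p lay between 0.0240 and 0.670. The other 5 factors differed from MOCK by between -0.45 for BCL11A and 0.29 for EBF1 (limma, adjusted p from 0.315 to 0.740). Without day 2 the BCL11A difference was -0.26, and without day 4 that of EBF1 was 0.17. No gene passed here either (limma, 0 of 8886 or 0%), with 1903 genes or 21.4% at an unadjusted p under 0.05 and 9.59% lower at that level, SPIB the single member among them. The 3 treatment comparisons share arrays, so their values stand side by side and do not support each other.

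**Figure D4:**
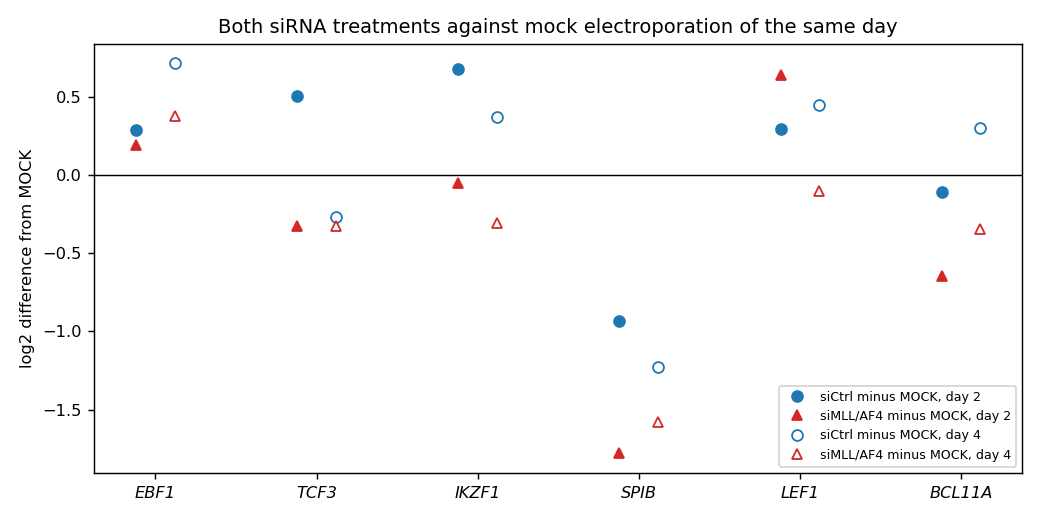
Log2 difference of each siRNA treatment from MOCK of the same day at the leading probe of the 6 tested factors. Blue circles are siCtrl and red triangles siMLL/AF4, filled for day 2 and open for day 4. SPIB lies below 0 in all 4 differences, from -0.93 to -1.78, while IKZF1 lies above 0 with siCtrl and below 0 with siMLL/AF4.

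Levels on day 4 were then set against those on day 2, which share an array version. These days followed 2 and 1 electroporations, so time in culture and the further pulse cannot be told apart. IKZF1 was lower on day 4 with every treatment, by -0.86 with MOCK, -1.17 with siCtrl and -1.12 with siMLL/AF4, or 2.07-fold lower in the fit (-1.05 ± 0.21 SE). Its adjusted p was 0.461 (limma) and became 0.0205 with a trended robust variance, and over all settings run it lay between 0.0205 and 0.763. PAX5, which entered this comparison because it had values on all 6 older arrays, was lower by -1.27, -2.68 and -0.51 in the same order (adjusted p = 0.461, limma). These PAX5 differences rest on dim values, from 1.46 to 5.63. With an offset of 16 the fitted difference of PAX5 was -0.72. With a trended robust variance its unadjusted p was 0.214 (limma), and with the filter at the 70th percentile it was not tested. EBF1, TCF3, SPIB and LEF1 were also lower on day 4 with all 3 treatments, by -0.23 to -0.45 in the fit, and BCL11A was higher by 0.24. Several of these values rest on 1 treatment. TCF3 went from -0.43 to -0.17 and PAX5 from -1.49 to -0.89 without siCtrl, LEF1 from -0.45 to -0.18 without siMLL/AF4, and EBF1 from -0.23 to -0.13 without MOCK. BCL11A went to 0.16 without siCtrl and 0.36 without MOCK. By direction alone, 6 of 7 members were lower on day 4 with every treatment, against 20.6% of 10230 genes. No gene passed (limma, 0 of 10230 or 0%), and 1069 or 10.4% had an unadjusted p under 0.05, 6.3% lower and 4.15% higher. IKZF1 and PAX5 were the 2 members among these genes, both lower.

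The regulators that work with these factors went both ways. Of 26 partner regulators, 21 were tested, and 14 were lower and 7 higher with siMLL/AF4 than with siCtrl, with a median of -0.15. In the fits against MOCK, 16 of the 21 were higher and 5 lower with siCtrl, with a median of 0.41. With siMLL/AF4, 14 were higher and 7 lower than with MOCK, with a median of 0.27. Between siMLL/AF4 and siCtrl, FLI1 and MEF2C differed by more than any of the 6 factors, by means of -1.21 and -0.77. MEF2C, a transcription factor of B-cell and myeloid progenitors, was lower by -1.13, -0.67 and -0.50 on days 2, 4 and 6. On days 2 and 4 it lay above MOCK with both siRNAs, by 1.23 and 1.26 with siCtrl and by 0.10 and 0.59 with siMLL/AF4. FLI1, an ETS factor, was lower by -1.69 and -1.83 on days 2 and 4 and by -0.095 on day 6. The first 2 differences rest on dim values of 4.55 and 3.54 with siMLL/AF4, against 6.24 and 5.37 with siCtrl, while on day 6 the levels were 9.36 and 9.45. ZEB2, a zinc finger repressor, differed by -0.60 and CTBP1, a corepressor, by -0.47, while FOXP1 ranged from -1.82 to 4.61 over the days. The 4.61 of FOXP1 on day 4 rests on a dim siCtrl value of 0.75. Of the 21 genes, 0 passed for siMLL/AF4 against siCtrl (limma, adjusted p). FLI1 and MEF2C were the 2 with an unadjusted p under 0.05 there, against the 7.39% of all genes given above.

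Of 18 relatives of the members by family, 7 were tested, 5 higher and 2 lower with siMLL/AF4, with a median of 0.34. SPI1 and TCF12, the 2 lower ones, also belong to the partner list. NFE2, a leucine zipper factor of the same wider family as BACH2, was higher by 0.83, 1.19 and 0.46 on days 2, 4 and 6. IKZF2 (Helios), of the Ikaros family, differed by 0.55. MAFG, a small MAF protein that pairs with BACH factors, differed by 0.35. The LEF1 relative TCF7L2 differed by -0.70, 0.32 and 1.40 on the 3 days, a mean of 0.34. The SPIB relative SPI1 (PU.1) differed by -0.24 with day values from 0.64 to -1.08, and 0 of the 7 passed (limma, adjusted p), NFE2 being the 1 with an unadjusted p under 0.05.

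Inhibitors of E proteins lack a basic DNA-binding region or compete for the same partners. Of 6 listed, 4 were tested. In the fit, both siRNA treatments had all 4 below MOCK, where 52.0% and 49.7% of all genes were lower. The medians were -0.45 with siCtrl and -0.76 with siMLL/AF4. By plain difference, however, ID2 with siMLL/AF4 was above MOCK on day 4, by 0.087. Between siMLL/AF4 and siCtrl 2 were lower and 2 higher. ID1 was lower than with siCtrl by -0.63, -1.38 and -0.91 on days 2, 4 and 6, and LYL1, a class II helix-loop-helix factor that pairs with E proteins, by -0.71, -1.03 and -0.55. ID2 and ID3 differed by 0.21 and 0.11. None passed over all genes (limma, adjusted p = 0.586 for both ID1 and LYL1, the 2 with an unadjusted p under 0.05).

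Genes that PAX5, EBF1 or E2A activate in B-cell precursors, as known mostly from mouse, went both ways. Of 22 such genes, 12 were tested, and 7 were higher and 5 lower with siMLL/AF4 than with siCtrl, with a median of 0.084 against -0.0054 for all genes. CD79A, the signalling chain of the B-cell receptor, was higher at its leading probe by 0.95, 0.85 and 0.42 on days 2, 4 and 6. Another CD79A probe with a value on every array, ILMN_1659227, disagreed in sign on day 2. There it read 9.45 with siMLL/AF4 and 9.96 with siCtrl, and it was higher with siMLL/AF4 on days 4 and 6. IGLL1, a chain of the surrogate light chain, differed by -0.29, 2.52 and 1.27. CD79B differed by -0.052, 0.93 and 0.32 at its leading probe, a mean of 0.40. Its probe ILMN_1710017 was higher with siMLL/AF4 on each day. Probe ILMN_1785439 was higher on day 4 but lower on days 2 and 6, at 6.82 against 7.10 and 7.98 against 8.32 with siCtrl. SYK, a kinase downstream of the receptor, differed by -0.52 and TNFRSF13C, the BAFF receptor, by -0.58. With siCtrl 9 of the 12 were lower than with MOCK, with a median of -0.62 against -0.032 for all genes, and with siMLL/AF4 8 of the 12 were lower than with MOCK, with a median of -0.25. None of the 12 passed in any of these comparisons (limma, adjusted p), and CD79A was the single gene with an unadjusted p under 0.05 against siCtrl.

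Of 9 listed genes that PAX5 represses in mouse B-cell precursors, 4 were tested, and 4 of 4 had a mean difference from siCtrl below 0. The median was -0.44, where 50.8% of all genes were lower. None but FLT3 was lower on all 3 days. FLT3, a receptor tyrosine kinase of progenitors, was lower by -0.22, -0.93 and -0.61, and CSF1R, a myeloid receptor, differed by 0.57, -1.40 and -1.41 on days 2, 4 and 6. NOTCH1 differed by -0.59, -0.87 and 0.62, a mean of -0.28. SDC1 differed by -2.02, 0.93 and 0.23, a mean of -0.29 that rests on a dim value of 1.80 with siMLL/AF4 on day 2. Against MOCK 3 of the PAX5-repressed genes were tested. In the fit 3 of 3 were higher with siCtrl, with a median of 0.45. With siMLL/AF4, 1 was higher and 2 were lower than with MOCK, with a median of -0.14. Of 11 targets of LEF1 and TCF factors 3 were tested against siCtrl, and MYC differed by 0.40, AXIN2 by 0.28 and ZNRF3 by -0.55. None of the genes of these 2 lists passed against siCtrl (limma, adjusted p) or had an unadjusted p under 0.05 there.

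**Figure D5:**
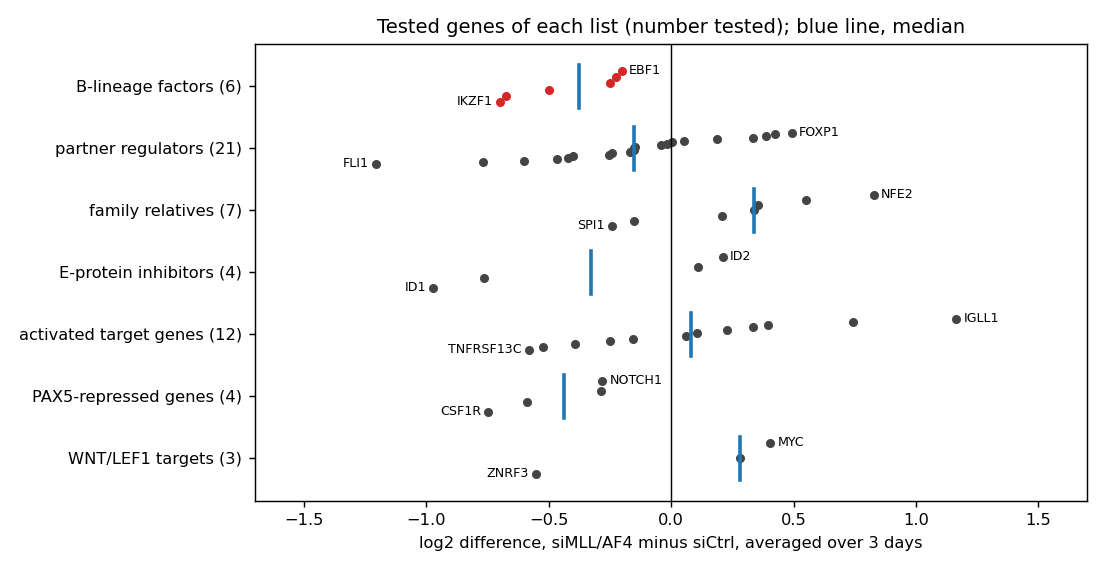
Log2 difference between siMLL/AF4 and siCtrl averaged over the 3 days, 1 point per tested gene, for the 6 B-lineage factors (red) and the 6 gene lists, with the median of each as a blue line and the outermost genes named. All 6 factors lie below 0, the activated target genes spread from -0.58 to 1.16, and the means of the 4 PAX5-repressed genes lie below 0, although 3 of them were higher on at least 1 day.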

How the data were processed

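Biotin-labelled total RNA was read on Illumina bead arrays. The submitters' processing notes name GenomeStudio without a version, and the sources used here do not state the normalization. The range of the deposited numbers fits a natural log scale, so each deposited value was divided by the natural log of 2, giving log2 values. On each array 28.5% to 28.8% of probes were Null and were treated as missing. Of 39421 probes, 27210 had 1 gene symbol in the platform annotation, 8 had several and 12203 were not listed, and 27177 were updated through the Entrez identifier. All columns mapped to a sample (0 unmapped).

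Probes entered a model only with numbers on every array in it, and only if their mean was no lower than that of the median probe of each array version (Null set to the lowest value for this step). Each gene was represented by its brightest probe. No offset was added. Tests were two-sided, with limma 3.58.1 in R 4.3.3 (lmFit, eBayes) and Benjamini-Hochberg adjustment over all genes. For the knock-down, the 6 siRNA arrays were blocked by time point (2 residual degrees of freedom), the comparisons with MOCK used all 8 arrays with the same block (3), and day 4 against day 2 used the 6 older arrays with treatment as a block (2). The fitted differences from MOCK therefore also draw on the siRNA pair of day 6. The labels pair the arrays by time point. The members and gene lists were chosen with earlier results of these data known. The text names every member, KMT2A and AFF1, and up to 5 genes of each list with the largest difference. PRDM1, CEBPA and the B-cell precursor markers not tested were named after their values were seen. Genes nearest in pattern were sought by the smallest root mean square difference of values centred within array version. This was done for tested members whose centred level ranged over at least 1 log2 unit.

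In 10 simulations of the knock-down (9096 genes, 200 of them altered), limma recovered 0%, 25.1% and 55.0% of log2 changes of 1, 2 and 3. The siMLL/AF4 and MOCK contrast (8886 genes) gave 2.39%, 50.9% and 74.8%. Promoter windows came from a RefSeq table of GRCh38.p14, in which 9 of 10 members were found. Precision is limited by the number of arrays. Figures were drawn with matplotlib 3.10.9.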

Additional observations from a re-analysis of the deposited data

How the results depend on the processing

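The member tests were repeated without a filter on the mean, with a filter at the 70th percentile, an offset of 16, a trended robust variance, quantile normalization within array version, the mean over the probes of a gene, the values read as log2, without the block, and without each time point or treatment in turn. The knock-down was also fitted with the MOCK arrays added. Over these settings 273 member values kept their direction and their side of the threshold, 3 newly passed and 4 turned, all 4 of them uncalled. Those that passed were SPIB against MOCK and IKZF1 on day 4 against day 2, given in the report. Leaving out 1 time point, TCF3 ranged from -0.44 to 0.077 (without replicate 1, day 2) for siMLL/AF4 against siCtrl and from -0.33 (without day 2) to 0.24 for siCtrl against MOCK. LEF1 ranged from -0.10 (without day 2) to 0.41 for siMLL/AF4 against MOCK, and BCL11A from -0.17 (without replicate 2, day 4) to 0.22 for siCtrl against MOCK. The causes were not tested, beyond the fewer arrays in these fits.

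The number of genes passing was 0 in each comparison and changed with the variance model and the filter. For the knock-down it was 19 with the filter at the 70th percentile, 3 with the offset of 16 and 32 with the trended robust variance, with 0 members among them. For siMLL/AF4 against MOCK it was 97, 4 and 375 in the same order, with SPIB among the 97 and the 375. For day 4 against day 2 it was 95 with the trended robust variance, with IKZF1 among them. For siCtrl against MOCK it stayed at 0 in each of these settings. Leaving out 1 time point or treatment gave 0 throughout (limma), with 454 to 683 genes at an unadjusted p under 0.05 for the knock-down. Without the replicate block, that is without time point but with array version, 0 genes passed in the 3 treatment comparisons. Without the treatment block 0 passed for day 4 against day 2. As 0 genes passed with the block too, these counts say little about what it does. For the knock-down, the unadjusted p (limma) of IKZF1 was 0.025 with the block and 0.159 without it, and that of SPIB 0.039 and 0.059. With 2 or 3 residual degrees of freedom, changes of 1 on the log2 scale were seldom recovered in simulated data, and changes of 2, somewhat above that of SPIB against MOCK, in 50.9% of cases in that contrast.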

Other observations

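BACH2 and PAX5 hold back plasma cell genes, of which 3 or 4 of the 7 listed reached the median probe on each array. All 4 probes of PRDM1 (Blimp-1), a repressor of the B-cell programme and a known BACH2 target, had Null entries. Of 7 listed plasma cell genes 3 were tested for siMLL/AF4 against siCtrl. XBP1, a factor of the secretory programme, differed by 0.53, -0.74 and -0.90 on days 2, 4 and 6, and MZB1, an endoplasmic reticulum chaperone of antibody assembly, by 0.38, 0.81 and 0.064. None passed (limma, adjusted p).

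Among the 6 tested members, SPIB and IKZF1 were those whose level, centred within array version, ranged over more than 1 log2 unit at the leading probe. The 4 dim members were not searched. Among 8886 genes tested, the gene closest to SPIB over the 8 arrays was HMGA1, an architectural chromatin protein, with a root mean square difference of 0.18. The gene closest to IKZF1 was PHF2, a histone demethylase, with a difference of 0.14. With 8 arrays and 8886 genes, some gene will lie close to any pattern.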
